A study of Mus musculus with 9 samples.

Results

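Chaperones bind unfolded or partly folded proteins and help them reach, or return to, their working shape. Hsp70 proteins hold short exposed stretches of a client while they turn over ATP, J-proteins deliver clients to Hsp70 and start that ATP cycle, and Hsp90 acts later, on clients such as kinases and receptors that are close to their final fold. The CCT ring, also called TRiC, is a barrel of related subunits that encloses a client, and actin and tubulin are its best known ones. Male germ cells are known for testis-enriched versions of several of these proteins and for a high level of Hsp90 alpha, which mouse spermatocytes need to finish meiosis.

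The genes described here are those whose platform symbol begins with Hsp and a digit or a letter from a to e, or with Dnaja, Dnajb or Dnajc, or names a numbered CCT subunit. Among the 7117 genes that had a probe with exactly 1 platform symbol, 45 met this rule, through 87 probes. They were 2 Hsp90 genes, 8 Hsp70 genes, 23 J-protein genes, 6 genes of the CCT ring and 6 other genes whose symbols begin with Hsp. That last set held the small heat shock proteins Hspb1 and Hspb8, the mitochondrial chaperonin pair Hspd1 and Hspe1, and the partner proteins Hspbp1 and Hspbap1. Of the 45 genes, 24 had several probes and 21 had 1, and none lay on chromosome X or Y.

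The study set whole testes of juvenile Spo11-/- mice beside those of wild-type mice. SPO11 cuts DNA to start meiotic recombination, and spermatocytes without it do not complete meiotic prophase. Each array was a spotted cDNA array that received total RNA of 1 knockout and 1 wild-type testis sample in 2 dyes, so each array is itself a pair. There were 4 arrays at 15 days, all with the knockout in Cy3, and 5 at 12 days, with the knockout in Cy5 on replicates 1, 4 and 5 and in Cy3 on replicates 2 and 3. The design text speaks of different mouse pairs from the same litter, and neither strain nor allele is given beyond the genotype. The p-values therefore measure the spread between such pairs. The same text speaks of quadruplicate arrays, and no label says whether any of the 5 arrays of 12 days share RNA. All 5 were counted, so at 12 days and in the age difference n, SE and p rest on taking them as separate pairs. Each value is a log ratio, read here as log2, so no level of any gene is known and the tissue cannot be checked by its markers. In whole testis, fewer cells of a type and less RNA per cell cannot be told apart.

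The labels do not say which channel was divided by which, and the arrays did not settle it. Over all probes, the 15-day arrays correlated at -0.38 to -0.33 with replicate 3 of 12 days, which had the same dye orientation, and at -0.25 to -0.11 with replicate 2. Over the 45 chaperone genes these ranges were -0.69 to -0.50 and -0.28 to 0.07, while pairs of 15-day arrays correlated at 0.46 to 0.73. For that reason the 15-day values keep the sign of the deposited table. Read as Cy5 over Cy3, a value below 0 is more RNA in the knockout, and read with the knockout on top of the ratio it is less. Turning the sign puts every 15-day value named below on the other side of 0 at the same size. The 15-day arrays all had the knockout in Cy3, so no dye term could be fitted to them alone. A gene's own dye effect and the genotype cannot be told apart in their mean.

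At 15 days, 8 of the 44 chaperone genes with enough values passed the test (limma, adjusted p under 0.05 over all features). Of these, 7 lay below 0: Hsp90aa1, Hspa4l, Dnajc15, Dnajc2 and the CCT genes Cct3, Cct5 and Cct7. Dnajc14 lay above 0. The 7 genes made 15.9% of the members tested, where 7.2% of all genes tested were called below 0. The 1 gene above 0 made 2.27% of the members, where 4.04% of all genes were called above 0. The shares of 7.2% and 4.04% are the background for each class and list count at 15 days below. The median member was at -0.10 and the median gene at -0.02. The members lay below 0 on all 4 arrays in 16 cases and above 0 on all 4 in 4 cases, and of the 6697 genes with 4 values 23.1% and 14.4% did so. Without replicates 1, 2, 3 or 4 the number of members called below 0 was 4, 3, 2 and 5, and the background called below 0 was 3.24%, 2.5%, 1.8% and 4.78%. Hsp90aa1 and Dnajc15 were called in each of these 4 fits, as was Dnajc14 above 0.

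**Figure D1:**
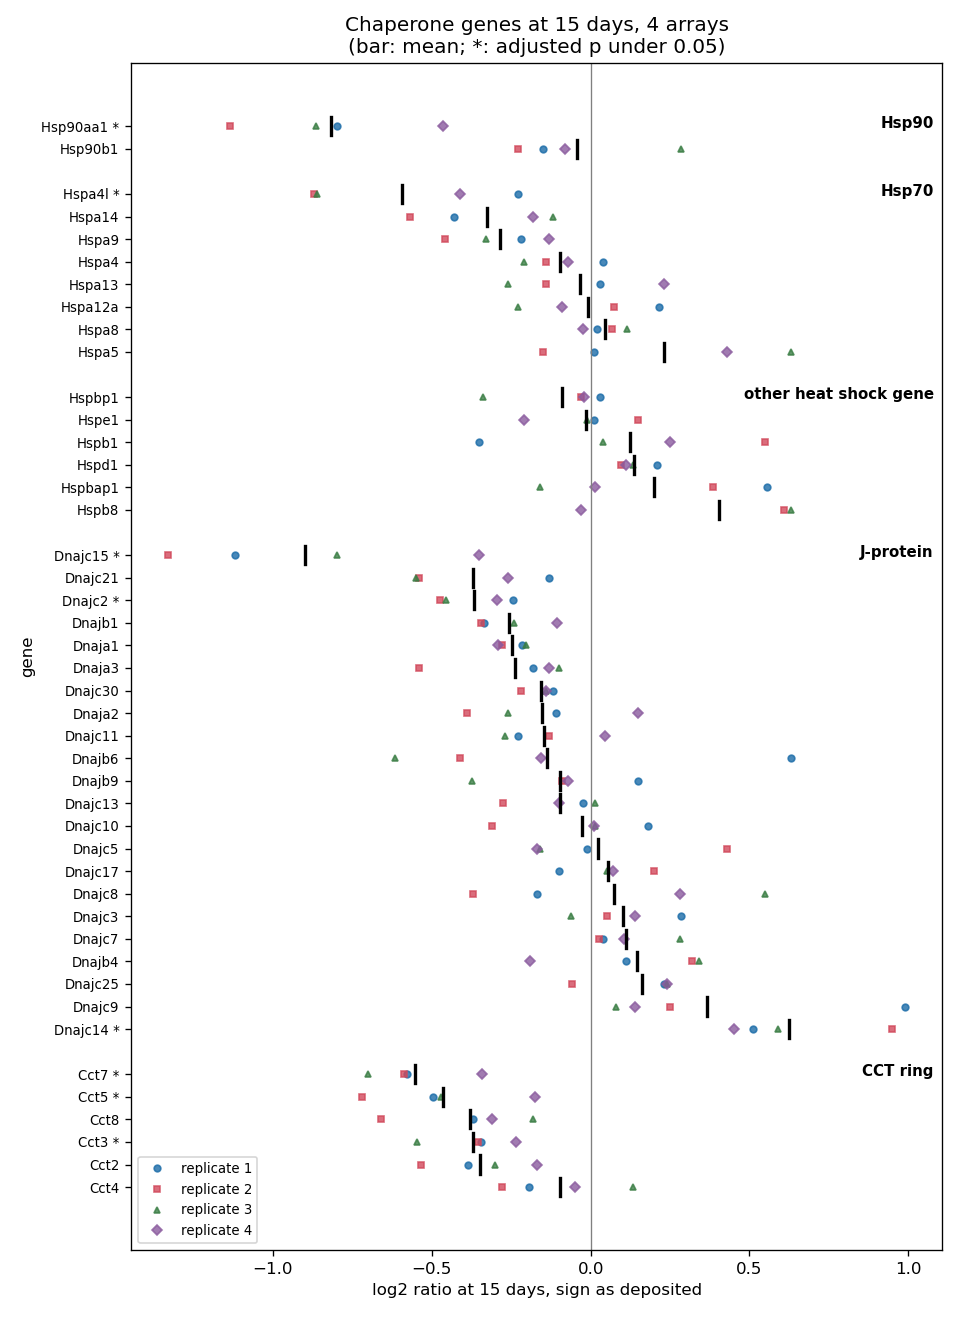
Log2 ratio (sign as deposited, x axis) of the 44 chaperone genes with 15-day values, by class (y axis), with 1 symbol per array, a bar at the mean and an asterisk where the adjusted p was under 0.05. Hsp90aa1 (mean -0.82) and Dnajc15 (mean -0.90) lie farthest below 0, 5 of the 6 CCT genes have all arrays below 0, and Dnajc14 (mean 0.63) lies farthest above.

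Hsp90aa1 encodes the stress-inducible cytosolic form, Hsp90 alpha. Its ratios on 15-day replicates 1 to 4 were -0.80, -1.13, -0.86 and -0.47. Their mean was -0.82 (SE 0.12, n = 4, limma adjusted p = 0.0059), or a 1.76-fold difference between the channels. All 4 arrays lay below 0, with replicate 4 the closest to it. The gene had 7 probes, whose means ran from -0.89 to -0.75, and all 27 of their values were below 0. Hsp90b1, the Hsp90 of the endoplasmic reticulum, gave -0.15, -0.23, 0.29 and -0.08. Its arrays lay on both sides of 0, and its mean of -0.04 (95% interval -0.30 to 0.21) did not pass the test. Both of its probes were near 0, at -0.08 and -0.01.

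Of the 6 measured genes of the CCT ring, Cct3, Cct5 and Cct7 passed the test below 0 and none did above it. All 6 means were below 0, and the class median was -0.38 with a range of -0.55 to -0.10. Cct7 gave -0.58, -0.59, -0.70 and -0.34 on replicates 1 to 4 (mean -0.55, SE 0.10, limma adjusted p = 0.014), and all 16 values of its 4 probes were below 0. Cct5 gave -0.50, -0.72, -0.47 and -0.18 (mean -0.47, SE 0.11, limma adjusted p = 0.032). Cct3 gave -0.35, -0.36, -0.55 and -0.23 (mean -0.37, SE 0.10, limma adjusted p = 0.045). Its 5 probes had means between -0.46 and -0.31, and 19 of their 20 values were below 0. Replicate 4 was the array closest to 0 for each of these 3 genes. Cct8 and Cct2 had means of -0.38 and -0.35 with all arrays below 0, and missed the threshold at limma adjusted p = 0.053 and 0.058.

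Cct4 was the subunit gene nearest 0. Its arrays gave -0.19, -0.28, 0.13 and -0.05, and its mean of -0.10 had a 95% interval of -0.34 to 0.15. Its 3 probes disagreed, with 1 at -0.42 and the others at 0.06 and 0.07. Calls in the CCT ring moved with single arrays: Cct7 alone was called without replicate 1 or 2, none without replicate 3, and Cct5 and Cct7 without replicate 4. Both Cct5 probes sit next to an Hsp90aa1 probe in the probe order of the array. On 12-day replicate 5 these neighbours gave -0.33 and -0.37 at 1 place and 0.97 and 0.93 at the other. At 15 days the means of the same neighbours were -0.50 for Cct5 and -0.75 for Hsp90aa1 at the first place, and -0.44 and -0.88 at the second. The part of array position in the Cct5 values was not tested beyond removing the local median over 100 neighbours on each side, after which Cct2, Cct3, Cct5, Cct7 and Cct8 were all called below 0. With that step 13 members (29.5%) were called below 0, against 10.4% of all genes.

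**Figure D2:**
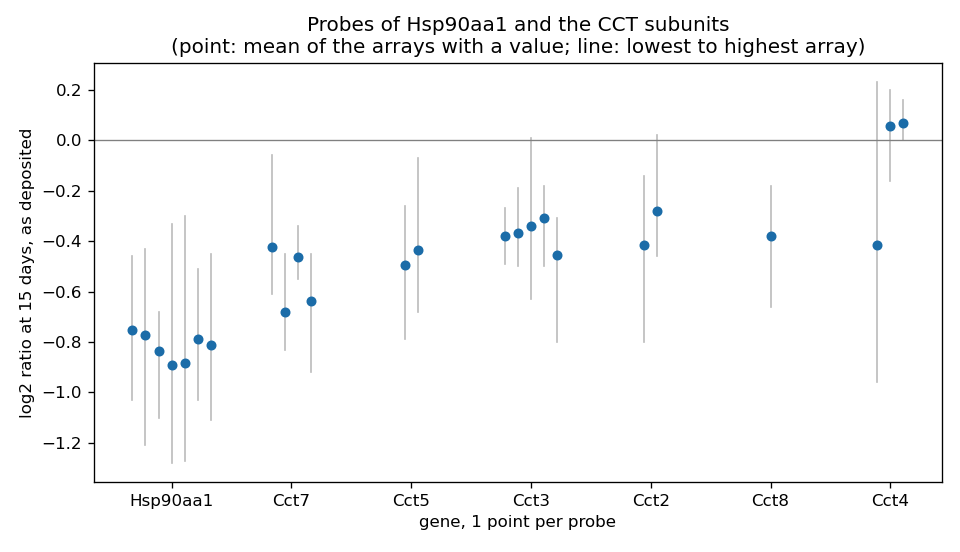
Mean log2 ratio at 15 days (sign as deposited, y axis) of each probe of Hsp90aa1 and the CCT genes (x axis), with a line from the lowest to the highest array. The 7 Hsp90aa1 probes lie between -0.89 and -0.75, and Cct4 is the gene whose probes fall on both sides of 0.

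Tcp1, the CCT subunit whose name the symbol rule does not catch, gave -0.51, -1.07, -0.84 and -0.80 (mean -0.81, SE 0.12, limma adjusted p = 0.005). It was read with the proteins that work around the ring: prefoldin, which hands actin and tubulin to CCT, and the tubulin folding cofactors. Of the 14 genes of that list tested at 15 days, 3 were called below 0 and 1 above, and the list median was -0.19. Over all genes 7.2% were called below 0 and 4.04% above. The prefoldin subunit Pfdn5 (mean -0.52) and the tubulin cofactor Tbca (mean -0.52) were below 0 with Tcp1, and the prefoldin subunit Vbp1 (mean 0.46) was above.

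RefSeq promoter windows, which run from 250 bases before to 50 bases after a start in GRCm38.p6, were held for 36 of the 45 genes, as 47 windows. Hsp90aa1 had none. A pair of heat shock element units (GAANNTTC or TTCNNGAA, both strands) was found in 11 of the 47 windows (23.4%) and in 15.1% of all 32851 windows. It lay in windows of 10 member genes, of which Cct5 alone passed the test. A CCAAT box (both strands) was found in 14 member windows (29.8%) and in 37.4% of all windows, and among the called genes in those of Cct3 and Cct7. Capitals in the sequences below mark the heat shock pair of Cct5 and the CCAAT boxes of Cct3 and Cct7, which read ATTGG on the printed strand. The 150 bases before a start of these 3 CCT genes are shown because the genes passed the test. They lie at chr3:88296985-88297134 on the plus strand for Cct3, at chr15:31601847-31601996 on the minus strand for Cct5 and at chr6:85451355-85451504 on the plus strand for Cct7.
Cct3: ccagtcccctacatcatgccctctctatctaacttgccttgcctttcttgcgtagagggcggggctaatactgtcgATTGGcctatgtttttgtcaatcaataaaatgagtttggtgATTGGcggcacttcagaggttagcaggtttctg
Cct5: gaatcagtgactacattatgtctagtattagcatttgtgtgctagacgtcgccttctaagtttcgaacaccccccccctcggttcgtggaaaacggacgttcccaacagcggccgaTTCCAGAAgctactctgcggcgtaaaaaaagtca
Cct7: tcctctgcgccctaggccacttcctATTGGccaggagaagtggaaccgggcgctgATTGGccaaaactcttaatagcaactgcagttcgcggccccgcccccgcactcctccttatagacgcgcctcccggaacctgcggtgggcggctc
Cct5 had 2 windows. Its pair ends 27 bases before the start in the window shown, and the other window held none of the motifs searched. The boxes shown of Cct3 begin 74 and 33 bases before its start, and those of Cct7 125 and 95 bases before its start. A match of letters is a description and was not tested as a binding site.

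Of the 8 Hsp70 genes, Hspa4l alone passed the test at 15 days. It encodes an Hsp110-type relative of Hsp70 that is abundant in male germ cells and acts as a nucleotide exchange factor. Its ratios were -0.23, -0.87, -0.86 and -0.41 (mean -0.59, SE 0.13, limma adjusted p = 0.024), with replicates 2 and 3 the farthest from 0. It had 1 probe, and it was not called without replicate 2 (-0.50, limma adjusted p = 0.084) or replicate 3 (-0.50, limma adjusted p = 0.098). Hspa4, its broadly expressed relative, gave 0.04, -0.14, -0.21 and -0.07, a mean of -0.10 (95% interval -0.32 to 0.13).

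The other Hsp70 genes did not pass the test, and the class median was -0.07 (0.03 with the local median in probe order removed). Hspa14, a ribosome-associated Hsp70 (mean -0.33, limma adjusted p = 0.087), and Hspa9, the mitochondrial Hsp70 (mean -0.29, limma adjusted p = 0.098), lay below 0 on all 4 arrays. Hspa8, the constitutive cytosolic form, gave 0.02, 0.07, 0.12 and -0.03. Its mean of 0.04 had a 95% interval of -0.17 to 0.26, and its 4 probes had means from -0.05 to 0.10. Hspa13 (-0.03) and Hspa12a (-0.01) had arrays on both sides of 0. Hspa5, the Hsp70 of the endoplasmic reticulum, had the highest mean of the class. Its arrays gave 0.01, -0.15, 0.63 and 0.43 (mean 0.23, 95% interval -0.08 to 0.54), so replicates 3 and 4 carried that mean.

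Hspa5 and Hsp90b1 belong to the chaperones of the endoplasmic reticulum, together with Hspa13 and the J-proteins Dnajb9, Dnajb11, Dnajc3 and Dnajc10. Of the 6 with 15-day values none passed the test. Their means ran from -0.10 to 0.23 with a median of -0.03, and none lay on the same side of 0 on all 4 arrays. Dnajb11 had no value at 15 days. Of the 17 other folding factors of the endoplasmic reticulum and mitochondria that were tested, the disulfide isomerase P4hb alone was called (mean -0.39). The list median was -0.07, and 7.2% of all genes were called below 0 and 4.04% above.

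Hspa5, Hsp90b1 and Dnajc3 each had a window with a motif that is named for stress of the endoplasmic reticulum. Its share among chaperones of that compartment is therefore a description and no independent evidence. The endoplasmic reticulum stress element, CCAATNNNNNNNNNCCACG on either strand, was found in 39 of the 32851 windows (0.119%), and 3 of the 47 member windows (6.38%) held it, 1 of each of these genes. The element begins with a CCAAT box, so each match is counted under both. The 150 bases before each start are shown for that element, in capitals with any further CCAAT box; on the minus-strand reading of Hsp90b1 it runs as CGTGG to ATTGG. They lie at chr2:34771940-34772089 on the plus strand for Hspa5, at chr10:86705445-86705594 on the minus strand for Hsp90b1 and at chr14:118937782-118937931 on the plus strand for Dnajc3.
Hspa5: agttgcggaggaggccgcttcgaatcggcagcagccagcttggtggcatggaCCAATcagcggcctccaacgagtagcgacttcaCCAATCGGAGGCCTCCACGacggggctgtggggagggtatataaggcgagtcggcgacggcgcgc
Hsp90b1: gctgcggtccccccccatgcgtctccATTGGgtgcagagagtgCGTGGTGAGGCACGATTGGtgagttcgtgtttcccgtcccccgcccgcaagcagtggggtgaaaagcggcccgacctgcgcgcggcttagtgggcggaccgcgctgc
Dnajc3: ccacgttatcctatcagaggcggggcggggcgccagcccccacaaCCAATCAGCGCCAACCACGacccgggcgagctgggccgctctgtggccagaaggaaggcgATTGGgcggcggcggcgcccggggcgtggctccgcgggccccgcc
At 15 days the means of these 3 genes were 0.23, -0.04 and 0.10, and none passed the test.

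Among the J-proteins, 3 of the 22 genes tested passed at 15 days, 2 below 0 and 1 above. Of all genes tested, 7.2% were called below 0 and 4.04% above. The class spread over the widest range, from -0.90 to 0.63, with a median of -0.10. Dnajc15, a J-protein of the inner mitochondrial membrane, gave -1.12, -1.33, -0.80 and -0.35 (mean -0.90, SE 0.15, limma adjusted p = 0.0096), or a 1.87-fold difference. Dnajc2, a J-protein bound to ribosomes and a partner of Hspa14 there, gave -0.25, -0.48, -0.46 and -0.30 (mean -0.37, SE 0.10, limma adjusted p = 0.044). All 8 values of its 2 probes were below 0, but it was not called when any 1 array was left out (limma adjusted p from 0.085 to 0.14).

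Dnajc14, a J-protein with membrane-spanning segments that is linked to receptor export from the endoplasmic reticulum, was on the other side. Its arrays gave 0.51, 0.95, 0.59 and 0.45 (mean 0.63, SE 0.11, limma adjusted p = 0.012), and no array came near 0. It rests on 1 probe, as does Dnajc15. Dnajc9, a histone-binding J-protein, also lay above 0 on all arrays at 0.99, 0.25, 0.08 and 0.14, but replicate 1 carried its mean of 0.37 and it was not called (limma adjusted p = 0.14).

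Dnaja1 and Dnajb1, cytosolic J-proteins, did not pass. Dnajb1, which serves Hsp70 in the heat shock response, had a mean of -0.26 (95% interval -0.48 to -0.03). Dnaja1 had a mean of -0.25 (95% interval -0.46 to -0.03). Both were below 0 on all 4 arrays, and both intervals leave out 0 before adjustment (limma adjusted p = 0.12 for each). Dnajb4, a relative of Dnajb1, had a mean of 0.15 with 3 of 4 arrays above 0, and Dnajc7, a J-protein that binds both Hsp70 and Hsp90, had a mean of 0.11 with all 4 above 0. Neither passed. Dnajc21, a J-protein of ribosome assembly, had a mean of -0.37 and missed the threshold at limma adjusted p = 0.059. Dnajb6 was the least even member: its arrays ran from -0.62 to 0.63, and its 2 probes had means of -0.70 and 0.09, the first of them with no value on replicate 1.

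Split by place in the cell, an assignment made after the values were seen, the 7 mitochondrial members included 1 called gene, Dnajc15, and had a median of -0.16. In the other places than endoplasmic reticulum and mitochondrion, 6 of 31 members were called below 0 and 1 above. The share of all genes called was 7.2% below 0 and 4.04% above. The mitochondrial chaperonin pair did not pass. Hspd1 gave 0.21, 0.10, 0.13 and 0.11 (mean 0.14, 95% interval -0.08 to 0.35), above 0 on all arrays, and Hspe1 had a mean of -0.01 with arrays on both sides.

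The remaining heat shock genes gave no call at 15 days, with a class median of 0.13 and a range of -0.09 to 0.40. Hspb8, a small heat shock protein that works with a BAG cochaperone in autophagy, had the highest mean at 0.40 from 3 arrays, at 0.61, 0.63 and -0.03, and no value on replicate 1. Hspb1 ran from -0.35 to 0.55. Hspbp1, an exchange factor for Hsp70, was lowest, at 0.03, -0.03, -0.34 and -0.02 (mean -0.09).

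The cochaperones of Hsp90 and Hsp70 were read as a list of 30 genes tested at 15 days, with a median of -0.13. Where 7.2% of all genes were called below 0 and 4.04% above, 4 of the 30 were called below 0 and none above. These were the Hsp70 partner St13 (mean -0.48), the Hsp90 partners Ttc4 (-0.50) and Ppid (-0.66), and the Hsp70 exchange factor Bag5 (-0.46). Among the 3 heat shock factor genes and partners measured, the germ cell gene Hsf2bp was called (mean -0.47). Hsf5, which is expressed in spermatocytes, had a mean of -0.60 and arrays from -1.16 to -0.12, and missed the threshold at limma adjusted p = 0.056.

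Cell type markers moved on the same arrays. Of the 8 pachytene spermatocyte markers, 5 were called below 0 and none above, with a list median of -0.87 and array medians of -1.24 to -0.41. Slc2a3, Rsph1, Lyar, Ccnb1ip1 and Ybx3 were called, and Sycp3 (mean 0.23), Cdc25c (0.145) and Ldha (-0.155) were not. Of the 9 spermatogonial markers, 3 were called above 0 and none below, with a median of 0.35. The 1 spermatid marker, Txndc2, was called above 0 (mean 0.81) from 3 arrays, with no value on replicate 1. A single gene gives no reading of spermatids. Of the 7 Sertoli cell markers none was called, 1 of the 6 Leydig cell markers was called above 0, 1 of the 9 peritubular cell and fibroblast markers was called on each side, 1 of the 3 macrophage markers was called below 0, and 1 of the 5 endothelial and blood cell markers was called above 0. Over all genes tested, 7.2% were called below 0 and 4.04% above. The marker lists were chosen with earlier results of these data known, so their counts are no independent evidence of cell composition. The part of cell composition in the chaperone values was not tested.

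At 12 days no chaperone gene changed by the test. With the ratios read as Cy5 over Cy3 and turned to knockout over wild type, limma called 0 of 43 members and 0 of 6237 genes (0%) at adjusted p under 0.05, and 1 member and 120 genes had an unadjusted p under 0.05. The median member was at 0.01 and the median gene at -0.01, and the members ran from -0.36 to 0.17. Cct8, with 2 values, and Dnajc14, with 3, were not tested.

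In the Cy5 over Cy3 reading, the lowest member at 12 days was Dnajc15. As deposited, it gave -0.79, -0.13 and -0.39 where the knockout was in Cy5 and 0.16 and 0.41 where it was in Cy3, so the groups of arrays did not overlap and every array pointed to less RNA in the knockout if the ratio is Cy5 over Cy3. The fit gave a knockout effect of -0.36 (SE 0.12, limma adjusted p = 1.0). It was the member with the unadjusted p under 0.05. Next in order of p came Dnajc5, a J-protein of secretory vesicles (0.17, SE 0.09), and Dnajb9, a J-protein of the endoplasmic reticulum (0.14, SE 0.08). Dnajc5 was deposited at 0.38, -0.27, -0.04, 0.11 and 0.06 on replicates 1 to 5, and Dnajb9 at 0.06, -0.13, -0.14, 0.13 and 0.25. Each was positive on the 3 arrays with the knockout in Cy5 and negative on the other 2. Dnajc15, Dnajc5 and Dnajb9 were picked for the smallest p at 12 days, which favours such a split of their arrays. How many of all genes split in this way was not counted.

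With the ratios read instead as knockout on top on every array, the mean of the deposited values gives the order: Dnajb4 was then lowest (-0.47), Hspa9 highest (0.38) and Dnajc15 at -0.15. That reading also gave 0 called members in limma. Some genes kept 1 sign on all 5 arrays of 12 days whatever the dye of the knockout. Cct7, Hspa9, Hspa14, Dnajc8 and Hspbp1 lay above 0 on all 5, and Dnajb4 lay below 0. Of these, Cct7 was called at 15 days and in the age difference. The share of all genes that kept 1 sign was not counted. Hspa9 was deposited at 0.35, 0.35, 0.34, 0.24 and 0.64, and Dnajb4 at -0.34, -0.68, -0.36, -0.29 and -0.67. The fit gave these 2 genes knockout effects of 0.03 (95% interval -0.19 to 0.25) and 0.04 (95% interval -0.20 to 0.29). Hsp90aa1 was deposited at -0.01, 0.24, 0.63, 0.24 and 0.41, above 0 on 4 of 5 arrays, and its knockout effect was -0.11 (95% interval -0.36 to 0.14). Its 7 probes lay between 0.55 and 0.73 on replicate 3 and between -0.37 and 0.93 on replicate 5. The 5 CCT genes tested had effects between -0.08 and 0.06.

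**Figure D3:**
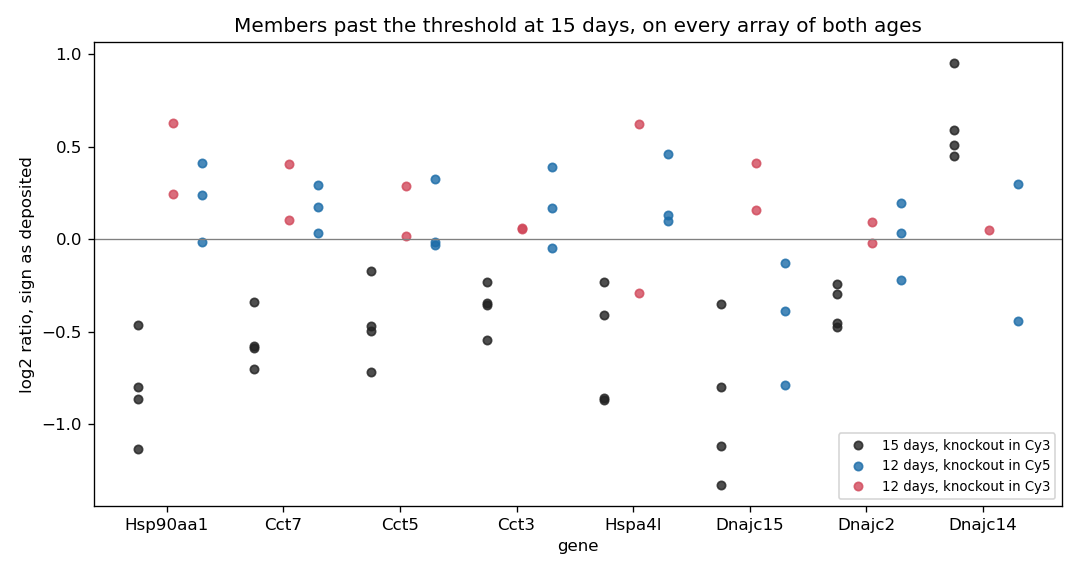
Log2 ratio as deposited (y axis) of the 8 members called at 15 days (x axis) on each array of 15 days (black) and of 12 days with the knockout in Cy5 (blue) or Cy3 (red). The 15-day arrays of Hsp90aa1 lie between -1.13 and -0.47, and its 12-day arrays between -0.01 and 0.63 in both dye orientations.

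The effect of the knockout at 15 days was set against that at 12 days in 1 fit over all 9 arrays. With the ratios read as Cy5 over Cy3 on all arrays, 3 of 42 members (7.14%) had a ratio of knockout to wild type that was higher at 15 days, where 1.64% of all genes did, and none had a lower one, where 0.635% of all genes did. They were Hsp90aa1 (difference 1.25, SE 0.21, limma adjusted p = 0.024), Dnajc15 (1.19, SE 0.27, limma adjusted p = 0.049) and Cct7 (0.81, SE 0.17, limma adjusted p = 0.038). The median difference was 0.14 over the members and 0.04 over all genes. With the sign of the 15-day arrays turned, the differences of these genes were -0.38, -0.62 and -0.30 and none passed (limma adjusted p from 0.74 to 0.81). In that reading 0 of 42 members and 0 of 6144 genes (0%) were called by limma, and 1 member and 373 genes had an unadjusted p under 0.05. In the same fit, with all arrays read as Cy5 over Cy3, 3 of the 6 pachytene spermatocyte markers tested were called. The median difference of the 6 was 2.0 in that reading and -0.70 with the sign turned. Their part in the chaperone differences was not tested. The fit takes the dye effect from the 12-day arrays, so it sets the 4 arrays of 15 days against 12-day replicates 2 and 3 alone. No difference was called without 15-day replicate 1, 2 or 3 or without 12-day replicate 2 or 3, and Hsp90aa1 alone was called without 12-day replicate 4. Calls over all genes fell as well. Without 15-day replicate 1, 2 or 3, 0.162%, 0.211% and 0.065% of genes were called higher and 0.0486%, 0.0974% and 0.0162% lower. Without 12-day replicate 2, 3 or 4, 0.486%, 0.151% and 0.504% were called higher and 0.076%, 0.218% and 0.146% lower. Dnajc15 also lost its call with no filter on the number of values (limma adjusted p = 0.055).

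**Figure D4:**
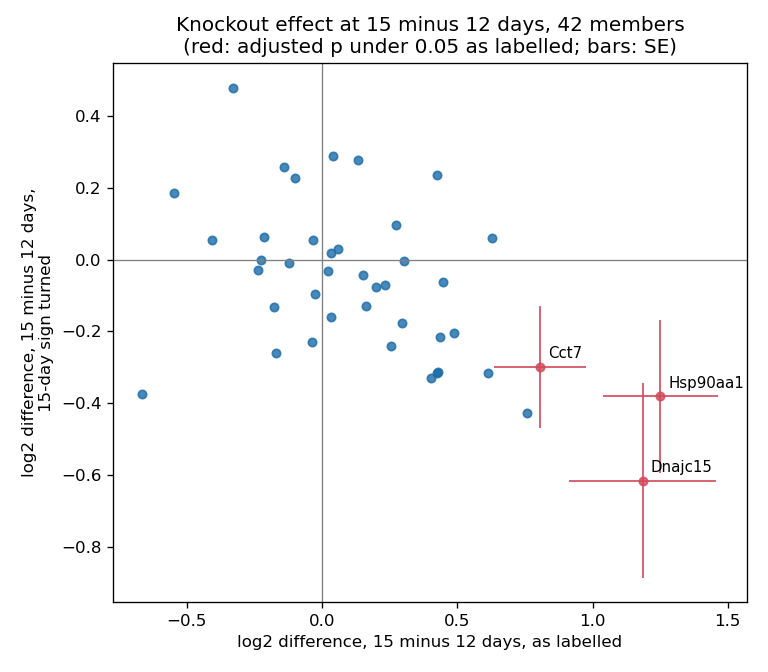
Difference of the knockout effect at 15 minus 12 days (log2) for 42 members with all arrays read as Cy5 over Cy3 (x axis) and with the sign of the 15-day arrays turned (y axis); red points passed the test in the first reading and carry SE bars. Hsp90aa1 lies at 1.25 on the x axis and at -0.38 on the y axis, and no member passed in the turned reading.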

How the data were processed

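The authors deposited 1 table of log ratios, read here as log2, for 16128 probes of a 2-colour spotted cDNA array. Per the series' design text, arrays were scanned on a GenePix instrument, flagged in GenePix and median centred, and genes were called with SAM. The base of the logarithm, any background correction and the orientation of each ratio were not given in the sources used here. The table holds no intensities, so precision rests on how many arrays there are. On 12-day replicates 1 and 2, 72.1% and 72.9% of the probes were measured, and on the other arrays 86.8% to 91.3%.

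Probes with exactly 1 platform symbol (9604 probes, 98.9% of them matched by Entrez ID to RefSeq names of GRCm38.p6) were averaged per gene. Probes with several symbols (213) or none (6311) were kept as features of their own. limma 3.58.1 in R 4.3.3 was run on all features with at least 3 values at 15 days or 4 at 12 days in both dye orientations, with a dye term at 12 days, two-sided, and Benjamini-Hochberg adjustment over 12198, 10075 and 9851 features for 15 days, 12 days and their difference. Replicates are numbered in accession order, which pairs nothing. The fits were tested on simulated data. Every member may be named; by rule, array values are given for members past the threshold, the lowest and highest of each class and the 3 of smallest p at 12 days, and genes of a list are named where they passed. Array values of Hspa4, Hspa8, Dnajc9 and Hspd1 at 15 days and of Hspa9, Dnajb4 and Hsp90aa1 at 12 days, and the naming of Hsf5, fall outside that rule and were chosen after their values were seen. The members and lists were chosen with earlier results of these data known. Alternatives covered filters, scaling, probe order, probe averaging, dye terms, a block on the title numbers at 12 days, the sign of the 15-day arrays and each array left out. Spo11 itself was not analysed here.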

Additional observations from a re-analysis of the deposited data

Results flagged for a closer look

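Single arrays stood apart from the others of their age, by Dixon's limit, in 5 of 86 groups of arrays (5.81%), where chance gives about 1 in 20. The values were -0.26 for Cct4 and -0.88 for Dnajc7 on 12-day replicate 5, -0.46 for Hsp90b1 on 12-day replicate 1, -0.06 for Dnajc25 on 15-day replicate 2 and -0.34 for Hspbp1 on 15-day replicate 3. The 12-day values here are turned to knockout over wild type by the dye labels, with the ratio read as Cy5 over Cy3. None of these genes passed the test at either age.

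A difference of the knockout effect between 15 and 12 days was called, by the limma test of the difference itself, for Hsp90aa1 (1.25), Dnajc15 (1.19) and Cct7 (0.81) with all arrays read as Cy5 over Cy3.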

How the results depend on the processing

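At 15 days the 8 called members (7 below 0, 1 above) became 14 (13 below) with the local median in probe order removed, 2 (2 below, 0 above) at adjusted p under 0.01 and 1.5-fold, where 1.39% of genes were below and 0.46% above, and 0 in the fit of both ages with a dye term and the 15-day sign turned (0 below, 0 above, and 0.114% and 0.0488% of genes). In the fit of both ages without a dye term 7 lay below 0 and 0 above, since Dnajc14 had too few 12-day values. Leaving out 1 array gave 3 to 6 called members, 2 to 5 of them below 0 and 1 above. The class medians kept their sign in the alternatives run, except that of Hsp70 (-0.07), which was 0.03 with the local median removed and 0.01 in the fit of both ages with the sign turned. At 12 days the count was 0 in all 17 alternatives. The age difference, called for 3 members, was called for 2 with no value filter, 5 with arrays scaled to the same spread, 6 with quantile normalization and 6 with the local median removed. In the last 3, 1 of the members, Dnajb4, was lower at 15 days, and 4.05%, 6.4% and 3.6% of genes were called higher and 1.73%, 2.18% and 1.4% lower. With no value filter 1.29% of genes were called higher and 0.459% lower. The age difference was called for 0 members at the stricter threshold, where 0.0163% of genes were called on each side. It was called for 0 members with the 15-day sign turned, and for 0% of genes. Leaving out 1 array gave 0 to 4 members, where 0.065% to 3.03% of genes were called higher and 0.0162% to 1.43% lower. With the sign turned, the differences reversed to -0.30 for Cct7, -0.38 for Hsp90aa1 and -0.62 for Dnajc15. The causes were not tested beyond the construction of each alternative. No paired analysis was possible because the labels carry no replicate numbers that 2 groups share, and each array is already a pair. The range of the numbers in the sample titles, taken as a block at 12 days, gave 0 called members. Some 12-day arrays hold fewer probe values, and ratios without intensities give no signal over background.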
